A study of Mus musculus with 8 samples.

Results

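The chemokine family was described in stromal cells of mouse bone marrow after culture in orbit or on the ground. These cells attach to the dish and can give rise to bone, fat and cartilage. Members were all genes whose annotated symbol is Ccl or Cxcl followed by a number, together with Cx3cl1 and Xcl1, taken from probe sets that name a single gene. The rule gave 34 of the 19938 genes measured, with no filter on brightness. Where a gene had several probe sets the one with the highest mean log2 intensity stood for it, which concerned Ccl19 and Ccl25. Another 7 probe sets that each name several Ccl21 or Ccl27 genes were left out.

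The cells came from the femurs and tibiae of C57BL/6 mice 6 to 8 weeks old, were expanded as adherent cells without added cytokines, and were kept on Skelite, a calcium phosphate scaffold. They stayed in osteoinductive medium, used to turn stromal cells into bone-forming cells, or in growth medium. In each medium 1 array was made for microgravity in flight, 1 for a 1g centrifuge in the same flight incubator, 1 for incubation units on the ground and 1 for culture dishes in the laboratory. Microgravity and centrifuge together are the 4 flight arrays, and ground and laboratory the 4 ground-based arrays. Flight hardware was automated whereas the ground units were worked by hand, so gravity, hardware and the flight itself cannot be told apart in flight against ground-based arrays. The centrifuge samples carry a gravity label reading microgravity, and a description of the osteoinductive centrifuge sample places it in growth medium. The titles were followed for both.

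Chemokines are small secreted proteins that bind G protein-coupled receptors on leukocytes and set up the gradients along which these cells move. Homeostatic chemokines such as Cxcl12 are made steadily and hold haematopoietic stem cells and lymphocytes in marrow and lymphoid organs. Inflammatory chemokines are switched on by cytokines and microbial products, largely through NF-kB and interferon signalling, and marrow stromal cells are a known source of both kinds.

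The values are log2 of the deposited intensities, and array medians ranged from 180.9 to 196.4 in intensity. The labels name no separate cultures or animals behind the arrays. The p-values therefore describe a spread between arrays of different medium or condition, part or all of which may be technical. In flight against ground-based arrays the conditions on each side served as repeats, so differences between those conditions counted as error. Of 12 stromal marker genes 11 had a mean above log2 7.14, the 40th percentile over the probe sets, and Col1a1 had values of 12.56 to 12.77 on the 8 arrays. Of 18 macrophage genes 11 also had a mean above it, and of 10 neutrophil genes 0 did. The macrophage genes differed widely in level. Cd53 lay between 10.46 and 11.29, Cd68 between 7.77 and 8.44 and Csf1r between 7.77 and 8.25. Adgre1, a surface marker of mature mouse macrophages, lay between 6.36 and 6.62, below the 40th percentile. Markers of tissues other than marrow stroma were higher in flight, with 11 of 11 endothelial, 11 of 11 neuronal, 6 of 10 skeletal muscle and 4 of 8 lung epithelial genes past the threshold, against 11.6% of all genes. Their part in the chemokine results was not tested. In bulk samples such as these, fewer cells of a type and less RNA per cell cannot be told apart.

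Of the 34 chemokine genes 19 had a mean above the 40th percentile and 15 did not. The files give no detection call, so for the dimmer genes a lack of difference may only reflect a signal near background. The levels of 26 genes spanned less than 1 log2 unit over the 8 arrays. The wider ranges belonged to Cxcl15, Cxcl10, Ccl3, Ccl5, Ccl2, Cxcl2, Ccl25 and Cxcl5, as the map of all arrays shows.

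**Figure D1:**
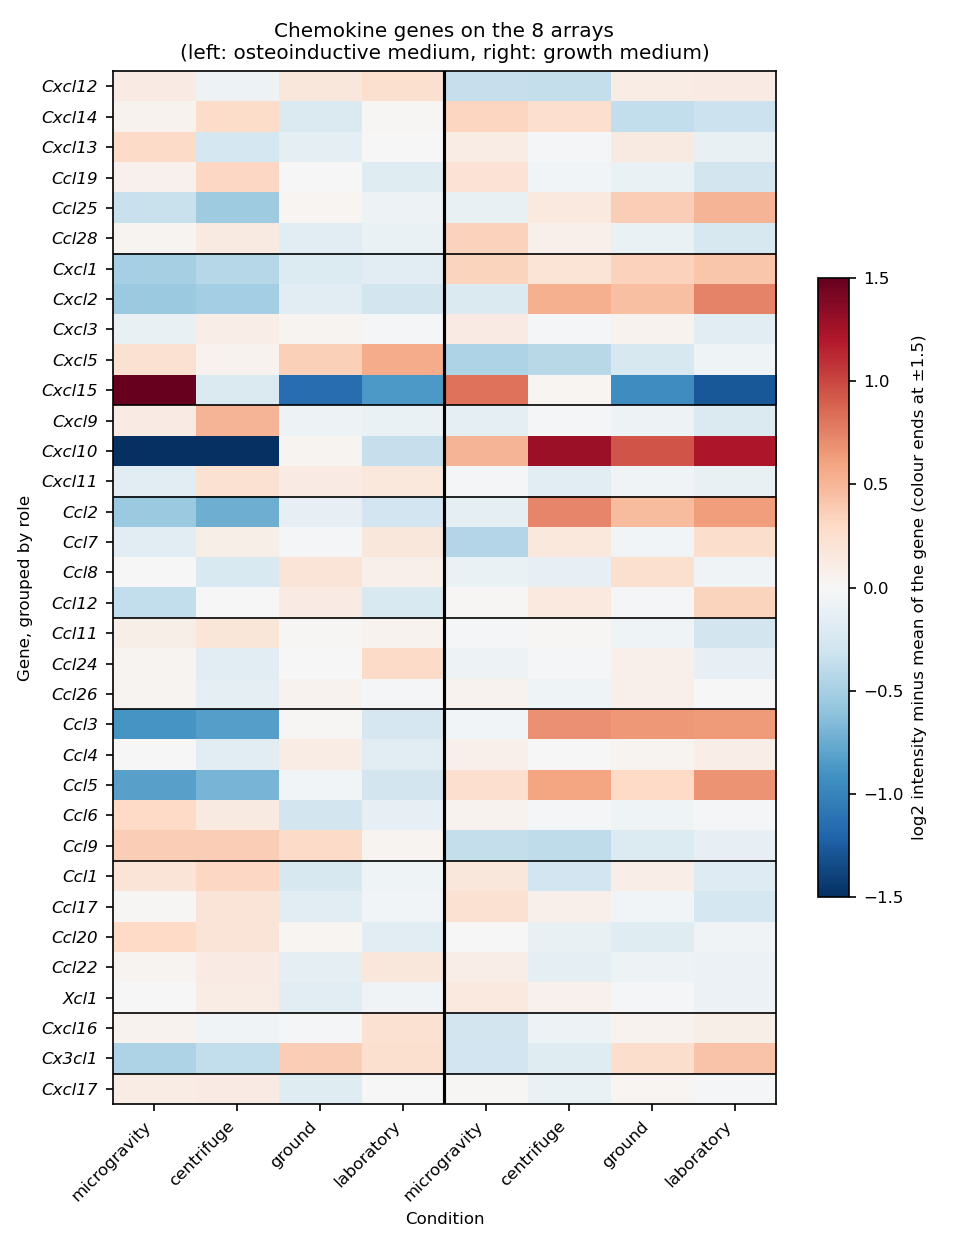
Level of each chemokine gene (rows, grouped by role) on each of the 8 arrays (columns), as log2 intensity minus the mean of that gene, with colours limited to 1.5 in either direction. The osteoinductive flight arrays are low for Cxcl10, Ccl3, Ccl5, Ccl2, Cxcl1 and Cxcl2, and Cxcl15 is high on the osteoinductive microgravity array.

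The comparison of osteoinductive with growth medium asked how the chemokines differed in cells directed towards bone. In osteoinductive medium 7 of the 34 genes fell (Cxcl10, Ccl3, Ccl5, Ccl2, Cxcl2, Cxcl1 and Ccl25) and 2 rose (Cxcl5 and Ccl9). Falls made up 20.6% of the chemokines and 4.27% of all genes, rises 5.88% and 4.18%, and calls in either direction 26.5% and 8.45%. A gene passed at an adjusted p under 0.05 in limma. The median log2 difference was 0.02 over the chemokines and 0.01 over all genes, so neither had a common shift. For each medium the 4 values are given in the order microgravity, centrifuge, ground and laboratory.

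Of the 3 interferon-induced chemokines, which draw activated T cells and NK cells through Cxcr3, Cxcl10 fell. Cxcl10 had log2 intensities of 7.11, 7.40, 9.11 and 8.72 in osteoinductive medium and 9.58, 10.35, 10.01 and 10.28 in growth medium. Every osteoinductive array lay below every growth array, and the osteoinductive flight arrays were the lowest of all. Cxcl10 was 3.92-fold lower in osteoinductive medium (log2 difference -1.97, SE 0.24, adjusted p = 0.000425). By log2 difference its relatives Cxcl9 (0.23, adjusted p = 0.2) and Cxcl11 (0.18, adjusted p = 0.346) did not pass, and both lay below the 40th percentile.

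Among the 5 neutrophil-attracting chemokines, which act through Cxcr2 or are grouped with those that do, Cxcl1 and Cxcl2 fell and Cxcl5 rose. Cxcl1 had 7.83, 7.90, 8.13 and 8.16 in osteoinductive medium and 8.67, 8.53, 8.68 and 8.74 in growth medium, without overlap between the media (log2 difference -0.65, SE 0.09, adjusted p = 0.000682). Cxcl2 had 6.75, 6.80, 7.14 and 7.03 in osteoinductive medium and 7.09, 7.84, 7.76 and 8.05 in growth medium. The growth microgravity array was the lowest of its medium for Cxcl2 and fell just below the highest osteoinductive array (log2 difference -0.75, SE 0.12, adjusted p = 0.00217). Cxcl5, a neutrophil attractant known from epithelial and stromal cells, had 7.23, 7.05, 7.37 and 7.56 in osteoinductive medium and 6.54, 6.58, 6.76 and 6.93 in growth medium. All osteoinductive arrays lay above all growth arrays, so the direction was opposite to that of Cxcl1 and Cxcl2, and Cxcl5 was 1.51-fold higher (log2 difference 0.60, SE 0.08, adjusted p = 0.000984). The mean of Cxcl5 and all its growth arrays lay below the 40th percentile, so the size of the fold may depend on the floor.

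Ccl3, Ccl4, Ccl5, Ccl6 and Ccl9 are macrophage inflammatory proteins and relatives that draw monocytes and other leukocytes. Ccl3 had 7.29, 7.35, 8.19 and 7.92 in osteoinductive medium and 8.13, 8.86, 8.82 and 8.81 in growth medium and fell 1.96-fold (log2 difference -0.97, SE 0.12, adjusted p = 0.000528). Only the growth microgravity array, at 8.13, reached the range of the osteoinductive arrays for Ccl3. Ccl5, a T cell and monocyte attractant, had 7.32, 7.43, 8.09 and 7.86 in osteoinductive medium and 8.38, 8.72, 8.43 and 8.81 in growth medium and was 1.88-fold lower in osteoinductive medium (log2 difference -0.91, SE 0.13, adjusted p = 0.00114). The media did not overlap for Ccl5, and they came closest on the ground, where the difference was -0.35. Ccl9, a Ccr1 ligand that is made by osteoclasts in mice, had 7.98, 7.98, 7.90 and 7.66 in osteoinductive medium and 7.26, 7.24, 7.41 and 7.49 in growth medium and was 1.45-fold higher (log2 difference 0.53, SE 0.10, adjusted p = 0.00879). The Ccl9 arrays did not overlap, although the difference in the laboratory dishes was 0.17 against 0.72 in microgravity. Without either centrifuge array Ccl9 no longer passed. Ccl4 (-0.11, adjusted p = 0.538) and Ccl6 (0.02, adjusted p = 0.947) did not pass.

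Ccl2 was the member of the 4 monocyte-attracting chemokines that passed. Ccl2, the main ligand of Ccr2, had 8.63, 8.45, 9.06 and 8.90 in osteoinductive medium and 9.05, 9.91, 9.66 and 9.80 in growth medium, which was 1.8-fold lower in osteoinductive medium (log2 difference -0.85, SE 0.14, adjusted p = 0.00321). As for Cxcl2, the growth microgravity array was the lowest of its medium and lay just below the highest osteoinductive array. Ccl7, its neighbour in function, had 8.37, 8.62, 8.51 and 8.71 in osteoinductive medium and 8.10, 8.69, 8.50 and 8.80 in growth medium and did not pass (log2 difference 0.03, SE 0.09, adjusted p = 0.894). Ccl12 (-0.24, adjusted p = 0.246) and Ccl8 (0.02, adjusted p = 0.945) did not pass either.

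Of the 6 niche and homeostatic chemokines Ccl25 fell. Ccl25, a ligand of Ccr9 best known from thymus and small intestine, had 8.42, 8.22, 8.78 and 8.68 in osteoinductive medium and 8.64, 8.90, 9.12 and 9.26 in growth medium (log2 difference -0.46, SE 0.10, adjusted p = 0.0123). Its arrays overlapped between media, because the osteoinductive ground and laboratory arrays stood above the growth microgravity array. The call of Ccl25 was lost when either centrifuge or either laboratory array was left out. Its second probe set differed by -0.58. Cxcl12, the marrow niche factor that retains stem cells through Cxcr4, did not pass between media (log2 difference 0.23, SE 0.09, adjusted p = 0.163). Among 3 eosinophil-attracting genes, 5 lymphocyte-attracting genes, the membrane-bound Cxcl16 and Cx3cl1, and the mucosal Cxcl17, 0 passed. Ccl11, which attracts eosinophils through Ccr3, had 8.27, 8.36, 8.19 and 8.24 in osteoinductive medium and 8.16, 8.20, 8.12 and 7.91 in growth medium (log2 difference 0.17, SE 0.08, adjusted p = 0.286).

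In 5 of the 34 genes the 4 osteoinductive arrays did not overlap the 4 growth arrays, which is 14.7% against 7.82% of all genes. Those genes were Ccl5, Cxcl1 and Cxcl10, which were lower, and Ccl9 and Cxcl5, which were higher.

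**Figure D2:**
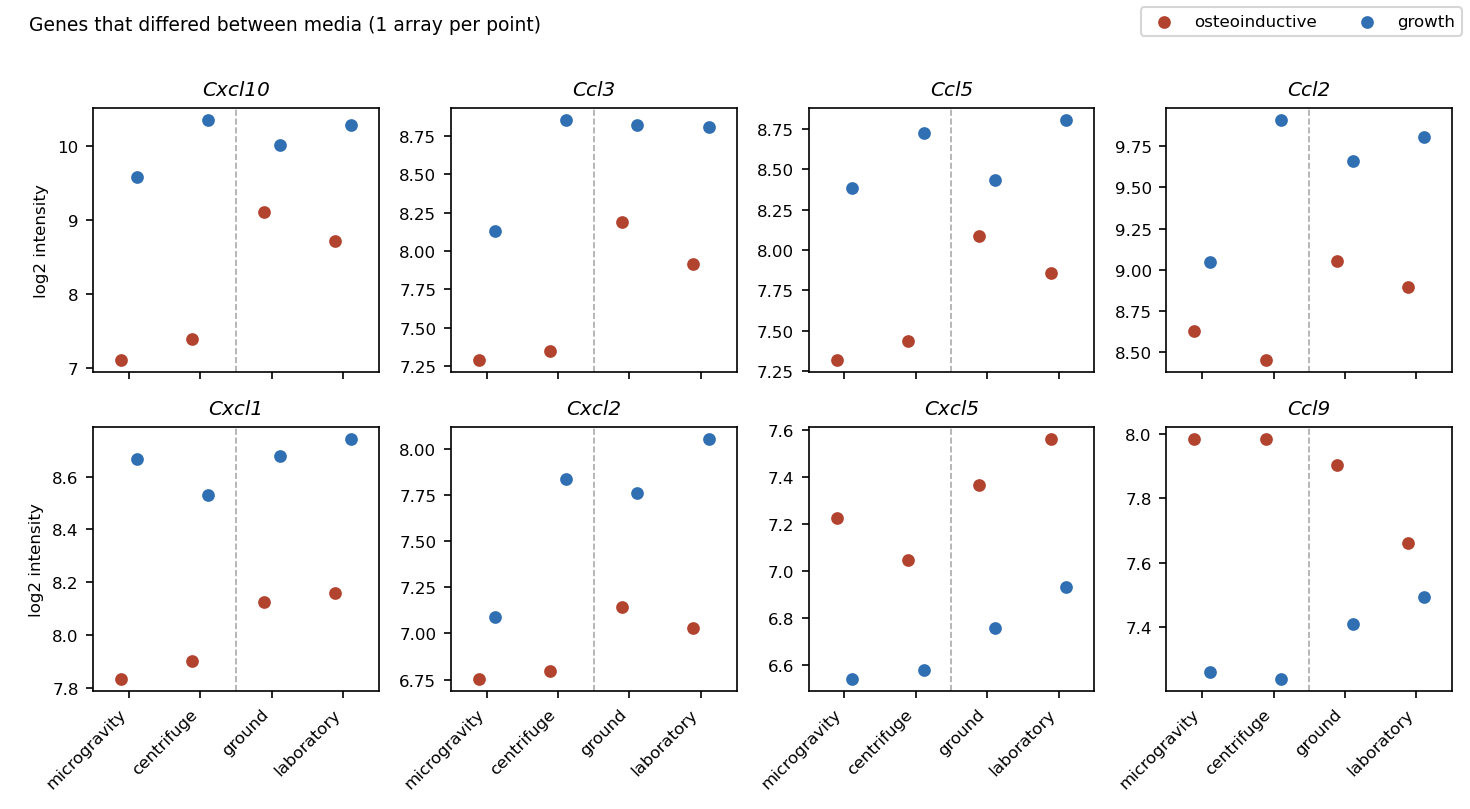
log2 intensity of 8 of the 9 chemokine genes that passed between media (y axis, its own scale for each gene), in the 4 conditions (x axis), with red points for osteoinductive and blue points for growth arrays. Osteoinductive points lie below growth points in every condition for Cxcl10, Ccl3, Ccl5, Ccl2, Cxcl1 and Cxcl2, and above them for Cxcl5 and Ccl9.

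The 250 bases before the start of Cxcl10, Cxcl1, Cxcl2 and Ccl3 are shown because these genes fell together in osteoinductive medium and 3 of them hold a match to the NF-kB binding motif. The sequences are RefSeq's for GRCm38.p6, read 5′ to 3′ on the strand of the gene. They lie at chr5:92348890-92349139 on the minus strand for Cxcl10, at chr5:90890995-90891244 on the plus strand for Cxcl1, at chr5:90903649-90903898 on the plus strand for Cxcl2 and at chr11:83649379-83649628 on the minus strand for Ccl3. Capitals mark matches, on either strand, to the NF-kB motif or to AANNGAAA, the core bound by interferon regulatory factors.
Cxcl10: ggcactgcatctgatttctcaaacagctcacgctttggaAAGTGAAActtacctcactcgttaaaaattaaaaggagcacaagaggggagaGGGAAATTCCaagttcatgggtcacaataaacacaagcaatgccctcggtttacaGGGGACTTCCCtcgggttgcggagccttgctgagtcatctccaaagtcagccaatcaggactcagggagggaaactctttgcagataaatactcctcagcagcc
Cxcl1: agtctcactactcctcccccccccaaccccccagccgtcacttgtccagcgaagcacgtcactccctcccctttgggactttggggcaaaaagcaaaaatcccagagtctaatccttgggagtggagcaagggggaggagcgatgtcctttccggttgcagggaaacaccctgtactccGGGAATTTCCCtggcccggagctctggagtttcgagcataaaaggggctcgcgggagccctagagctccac
Cxcl2: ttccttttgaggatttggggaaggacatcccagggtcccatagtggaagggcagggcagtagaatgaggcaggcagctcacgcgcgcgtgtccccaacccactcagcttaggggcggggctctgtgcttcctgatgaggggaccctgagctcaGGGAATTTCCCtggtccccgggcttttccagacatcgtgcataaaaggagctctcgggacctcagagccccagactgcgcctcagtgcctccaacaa
Ccl3: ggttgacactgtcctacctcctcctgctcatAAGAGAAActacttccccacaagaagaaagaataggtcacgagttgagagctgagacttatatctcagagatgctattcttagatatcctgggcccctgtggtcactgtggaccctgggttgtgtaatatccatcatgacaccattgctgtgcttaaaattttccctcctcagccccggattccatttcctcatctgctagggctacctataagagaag

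Cxcl10 held 2 separate NF-kB matches, the nearer one beginning 103 bases before the start, and an AANNGAAA match that begins 211 bases before it. The NF-kB match began 70 bases before the start in Cxcl1 and 96 bases before it in Cxcl2. Ccl3 held no NF-kB match in this window and an AANNGAAA match that begins 219 bases before the start. Matches that overlapped, including those on opposite strands, were counted as 1. The position given is that of the match nearest the start, so a marked stretch of overlapping matches begins slightly further upstream. The table held a stretch for 23 of the 34 chemokines, and 7 of them (30.4%) held an NF-kB match, against 7.25% of 32851 stretches of the same length. An AANNGAAA match was also held by 7 of the 23 (30.4%), against 21.3% of all stretches. Of 5 chemokines with a stretch that fell in osteoinductive medium 3 held an NF-kB match, and of the 18 others 4 did (Ccl1, Ccl20, Ccl9 and Cxcl3). Ccl25, which also fell and is not shown, held neither match in its stretches, and Ccl2 and Ccl5 had no stretch. Ccl9, which rose, is among the holders. A match is a string of letters and does not show that a factor binds there.

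Flight against ground-based arrays asked how the chemokines differed in cells that had been in orbit. In flight 6 of the 34 genes fell (Cxcl10, Cx3cl1, Ccl3, Ccl25, Cxcl12 and Cxcl5) and 5 rose (Cxcl15, Cxcl14, Ccl28, Ccl19 and Ccl17). Rises made up 14.7% of the chemokines and 11.6% of all genes, falls 17.6% and 16.2%, and calls in either direction 32.4% and 27.8%, so the shares were close to those of the whole array. The median log2 difference was -0.05 over the chemokines and -0.02 over all genes. With quantile normalization 10 chemokines passed, of which 2 were higher and 8 lower, beside 4617 of all 19938 genes. The flight values are given in the order osteoinductive microgravity, osteoinductive centrifuge, growth microgravity and growth centrifuge, and the ground-based values in the order osteoinductive ground, osteoinductive laboratory, growth ground and growth laboratory.

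**Figure D3:**
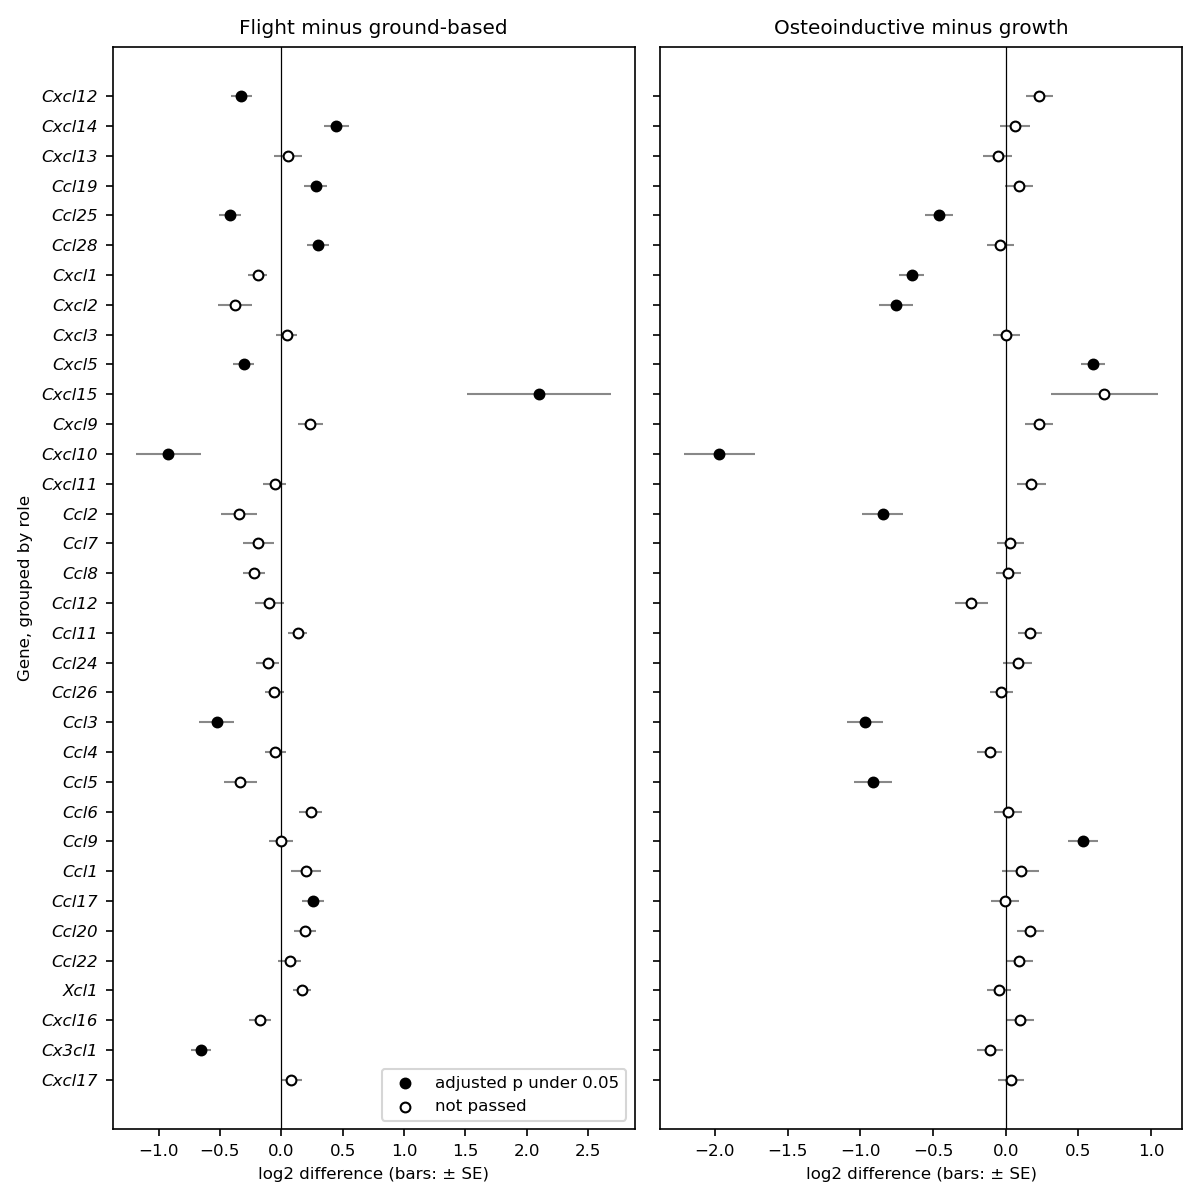
log2 difference of each chemokine gene (rows, grouped by role) in flight minus ground-based arrays (left) and in osteoinductive minus growth medium (right), with bars of ± SE from limma and filled points for an adjusted p under 0.05. Cxcl15 has the longest bar in both panels, and Cxcl10, Ccl3, Ccl25 and Cxcl5 are filled in both.

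Of the 6 niche and homeostatic chemokines 3 rose and 2 fell. Cxcl12 had 8.37, 8.17, 7.90 and 7.89 on the flight arrays, against 8.42, 8.48, 8.36 and 8.38 on the ground-based arrays. Its 2 growth flight arrays stood below all others, the osteoinductive centrifuge array came next, and the osteoinductive microgravity array lay within the ground-based range. Cxcl12 was 1.25-fold lower in flight (log2 difference -0.32, SE 0.09, adjusted p = 0.0165), with differences of -0.18 in osteoinductive and -0.47 in growth medium. Its call was lost without either the growth ground or the growth laboratory array.

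Ccl25 was 1.34-fold lower in flight (log2 difference -0.42, SE 0.09, adjusted p = 0.00461), on the arrays given for the media, and its second probe set differed by -0.36. Each flight array of Ccl25 was lower than both ground-based arrays of its own medium. Cxcl14, a chemokine of epithelia and stroma that acts on monocytes and other myeloid cells, had 7.47, 7.70, 7.74 and 7.67 on the flight arrays, against 7.20, 7.44, 7.05 and 7.10 on the ground-based arrays. All flight arrays were above all ground-based arrays, and Cxcl14 was 1.36-fold higher (log2 difference 0.45, SE 0.10, adjusted p = 0.00655).

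Ccl28, which draws IgA plasma cells to mucosa through Ccr10, had 7.00, 7.10, 7.30 and 7.04 on the flight arrays, against 6.80, 6.86, 6.86 and 6.71 on the ground-based arrays (log2 difference 0.30, SE 0.09, adjusted p = 0.025). Ccl19, the Ccr7 ligand that guides T cells and dendritic cells into lymph nodes, had 7.49, 7.73, 7.65 and 7.39 on the flight arrays, against 7.41, 7.24, 7.33 and 7.15 on the ground-based arrays (log2 difference 0.28, SE 0.09, adjusted p = 0.0452). The 4 flight arrays were above the ground-based ones for Ccl28 and overlapped them for Ccl19. The mean of Ccl28 lay below the 40th percentile. Near-identical copies of Ccl19 exist in the mouse genome, so which copy the signal comes from is uncertain, and its 5 probe sets differed by 0.28 to 0.33. Ccl28 lost its call in 5 and Ccl19 in 6 of 8 fits that left out 1 array, and neither passed with quantile normalization. Cxcl13 did not pass (0.06, adjusted p = 0.761).

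Cx3cl1 is a chemokine tethered to the cell surface that also acts as an adhesion molecule for cells with Cx3cr1. Cx3cl1 had 8.45, 8.55, 8.63 and 8.73 on the flight arrays, against 9.28, 9.16, 9.18 and 9.34 on the ground-based arrays. The flight arrays all lay below the ground-based arrays, with a gap wider than the spread within either side. Cx3cl1 was 1.57-fold lower in flight (log2 difference -0.65, SE 0.08, adjusted p = 0.000112), with differences of -0.72 in osteoinductive and -0.58 in growth medium. Leaving out any 1 array gave differences of -0.70 to -0.61, and the call held each time. Cxcl16, the other membrane-bound member, did not pass (-0.17, adjusted p = 0.161).

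Of the inflammatory chemokines, Cxcl10 and Ccl3 fell in flight as well as in osteoinductive medium. Cxcl10 was 1.89-fold lower in flight (log2 difference -0.92, SE 0.26, adjusted p = 0.0209), with differences of -1.66 in osteoinductive and -0.18 in growth medium. Ccl3 was 1.44-fold lower (log2 difference -0.53, SE 0.14, adjusted p = 0.0179), with differences of -0.74 in osteoinductive and -0.32 in growth medium. For both genes flight and ground-based arrays overlapped across media. With 1 array left out Cxcl10 ran from -1.22 to -0.69 and lost its call in 5 of 8 fits, and Ccl3 ran from -0.71 to -0.42 and lost its call in 3.

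Cxcl5 fell in flight (log2 difference -0.31, SE 0.09, adjusted p = 0.0194), while it rose in osteoinductive medium. Its call was lost in 3 of the 8 fits without 1 array. The other inflammatory chemokines that fell in osteoinductive medium, Ccl2, Ccl5, Cxcl1 and Cxcl2, did not pass in flight, with log2 differences of -0.34 (adjusted p = 0.109), -0.33 (adjusted p = 0.0802), -0.19 (adjusted p = 0.0882) and -0.38 (adjusted p = 0.0598). Ccl9, which rose in osteoinductive medium, did not pass in flight (log2 difference 0.00, SE 0.10, adjusted p = 0.998).

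Among the 5 lymphocyte-attracting chemokines Ccl17, a Ccr4 ligand, rose. Ccl17 had 7.85, 8.03, 8.07 and 7.91 on the flight arrays, against 7.66, 7.79, 7.80 and 7.58 on the ground-based arrays (log2 difference 0.26, SE 0.09, adjusted p = 0.046). The flight arrays lay above the ground-based arrays by a narrow margin, and Ccl17 lost its call in 6 of the 8 fits without 1 array and with quantile normalization. Xcl1, a C chemokine of T and NK cells that attracts cross-presenting dendritic cells, was also higher on every flight array but did not pass (0.17, adjusted p = 0.12). Groups that did not overlap were seen for 6 chemokines (17.6%), namely Ccl17, Ccl28, Cxcl14, Cxcl15 and Xcl1 with higher flight arrays and Cx3cl1 with lower ones, and for 23.4% of all genes.

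The 4 monocyte-attracting and 3 eosinophil-attracting genes held 0 that passed in flight. Ccl7 had a log2 difference of -0.19 (adjusted p = 0.309) and Ccl11 one of 0.13 (adjusted p = 0.238). For Ccl7 both microgravity arrays were the lowest of their medium.

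Cxcl15, known as lungkine, is a neutrophil attractant made by lung epithelium in mice. Cxcl15 had 9.92, 6.12, 7.15 and 6.37 on the flight arrays, against 5.19, 5.48, 5.41 and 5.07 on the ground-based arrays. The osteoinductive microgravity array stood far above the rest, the growth microgravity array came next, and all 4 flight arrays lay above all ground-based arrays. Cxcl15 rose in flight (log2 difference 2.10, SE 0.59, adjusted p = 0.0194). The 4 ground-based values lay well below the 40th percentile, near the low end of the scale, so the size of this difference depends on the floor and no fold is given. Without the osteoinductive microgravity array the log2 difference was 1.22 and still passed, at an adjusted p of 0.00107. The call was lost without the growth microgravity, the osteoinductive ground or the osteoinductive laboratory array, and with 32 added to each intensity before log2 (1.58, adjusted p = 0.0551). Its mean lay below the 40th percentile.

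Some genes of lung epithelium moved with Cxcl15 over the arrays, and 4 of the 8 listed passed in flight. Sftpc, surfactant protein C, had 12.81, 9.50, 10.56 and 10.27 on the flight arrays, against 6.61, 6.75, 6.78 and 6.75 on the ground-based arrays. Slc34a2, a phosphate carrier of alveolar type II cells, had 10.80, 7.35, 7.94 and 7.28 on the flight arrays, against 6.71, 6.55, 6.72 and 6.50 on the ground-based arrays. The osteoinductive microgravity array was the highest for each, as for Cxcl15. Other members followed Cxcl15 less closely. Lamp3 on the growth microgravity array (5.63) lay within its ground-based range. So did Sftpd on the osteoinductive (7.38) and growth (7.31) centrifuge arrays. The summed intensity of the 8 lung epithelial genes ranged from 1850 to 14237.5 on flight arrays and from 948.6 to 1050 on ground-based arrays. Whether lung epithelial RNA has a part in the Cxcl15 result was not tested.

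**Figure D4:**
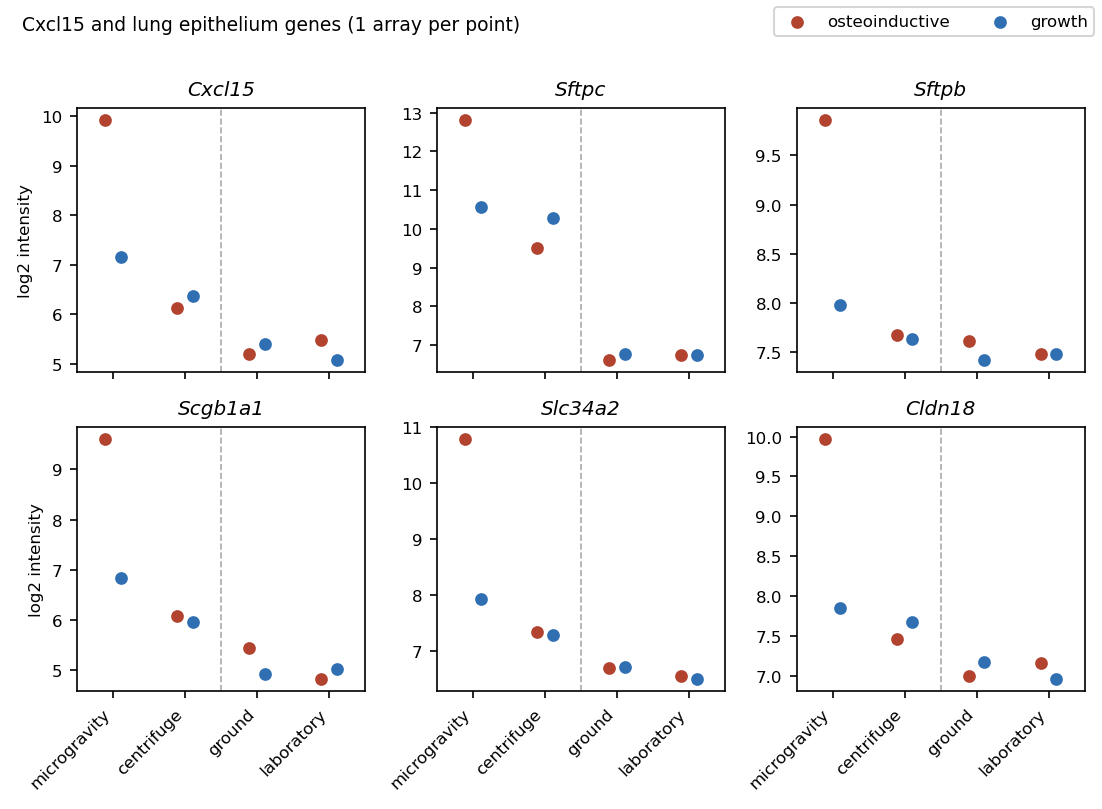
log2 intensity (y axis, its own scale for each gene) of Cxcl15 and 5 lung epithelial genes in the 4 conditions (x axis), with red points for osteoinductive and blue points for growth arrays. The osteoinductive microgravity array is the highest for every gene shown.

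Microgravity and the centrifuge were each set against the ground units, which both comparisons share as reference. In microgravity 7 of 34 chemokines passed (20.6%, against 20.2% of all genes), and on the centrifuge 2 passed (5.88%, against 7.61% of all genes). Cx3cl1 differed by -0.69 ± 0.12 (SE) in microgravity (adjusted p = 0.00254) and by -0.59 ± 0.12 on the centrifuge (adjusted p = 0.0109). Cxcl14 differed by 0.48 ± 0.15 in microgravity (adjusted p = 0.0363) and by 0.56 ± 0.15 on the centrifuge (adjusted p = 0.036). Without the osteoinductive ground array Cx3cl1 passed in neither comparison, and without the osteoinductive centrifuge array it did not pass on the centrifuge. Cxcl14 ranged from 0.26 to 0.71 in microgravity with 1 array left out, and lost its call there in 5 of 8 fits and on the centrifuge in 4. Quantile normalization ended both calls of Cxcl14 (adjusted p = 0.113 in microgravity and 0.0814 on the centrifuge).

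The other 5 genes that passed in microgravity did not pass on the centrifuge. Cxcl15 differed by 3.23 ± 0.52 (SE) in microgravity (adjusted p = 0.00132) and by 0.94 on the centrifuge (adjusted p = 0.357). Without the osteoinductive microgravity array the microgravity value of Cxcl15 was 1.84. Ccl3 differed by -0.80 (adjusted p = 0.00833) and -0.40 (adjusted p = 0.224) in microgravity and on the centrifuge, and Cxcl2 by -0.53 (adjusted p = 0.0425) and -0.13 (adjusted p = 0.735). Cxcl10 differed by -1.22 (adjusted p = 0.0285) in microgravity and -0.68 (adjusted p = 0.307) on the centrifuge. Ccl25 had values of -0.43 (adjusted p = 0.0457) and -0.39 (adjusted p = 0.118) in that order. With 1 array left out the microgravity value of Cxcl10 ran from -1.93 to -0.51 and that of Cxcl2 from -0.80 to -0.25, and each lost its call in 3 of 8 fits. Ccl25 ran from -0.58 to -0.27 and lost its call in 5, and Ccl3 from -1.02 to -0.57 and lost its call in 2. Quantile normalization ended the microgravity calls of Cxcl10 (adjusted p = 0.0903) and Ccl25 (adjusted p = 0.0594). Without the osteoinductive ground array 1 chemokine passed in microgravity and 0 on the centrifuge.

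Set against each other directly, microgravity and the centrifuge differed at the threshold in 0 of 34 chemokines and in 0 (0%) of all genes by limma. At an unadjusted p under 0.05 there were 5 chemokines and 2120 genes. Cxcl15 had the lowest adjusted p of the family (log2 difference 2.29, SE 0.52, adjusted p = 0.296), and Ccl7 the next (log2 difference -0.42, SE 0.13, adjusted p = 0.329). A difference in the chemokines between microgravity and 1g in flight was therefore not detectable with these arrays. Without the growth microgravity array Cxcl15 passed. Ground units and laboratory dishes also differed in 0 chemokines and 0 (0%) of all genes, with 0 chemokines and 480 genes at an unadjusted p under 0.05.

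Whether the flight difference depended on medium was tested with an interaction term, and 0 of 34 chemokines and 0 (0%) of all genes passed. At an unadjusted p under 0.05 there were 3 chemokines and 842 genes. Cxcl10 came nearest among the chemokines (flight difference in osteoinductive minus that in growth medium -1.48, SE 0.32, adjusted p = 0.62, unadjusted p = 0.000606). On the osteoinductive arrays both flight values of Cxcl10 were below both ground-based values, whereas on the growth arrays they overlapped. Ccl5 (-0.53, adjusted p = 1) and Ccl9 (0.40, adjusted p = 1) were the other 2. Without the osteoinductive centrifuge array Cxcl15 passed.

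Of 18 conventional chemokine receptors 4 had a mean above the 40th percentile: Cxcr4, Cx3cr1, Ccr7 and Cxcr3. Cxcr4, the receptor of Cxcl12, rose in flight, the single receptor of the 18 to pass (5.56%, against 11.6% of all genes that rose). Cxcr4 had 7.87, 7.61, 8.25 and 7.98 on the flight arrays, against 6.88, 6.73, 6.80 and 6.52 on the ground-based arrays. All flight arrays were above all ground-based arrays, and the sign (log2 difference 1.20, SE 0.12, adjusted p = 2.16e-05) was opposite to that of Cxcl12. The ground-based values of Cxcr4 all lay below the 40th percentile, so the size of this difference may depend on the floor. Cx3cr1, the receptor of Cx3cl1, had 8.10, 7.82, 8.09 and 7.54 on the flight arrays, against 7.64, 7.37, 7.70 and 7.58 on the ground-based arrays and did not pass (log2 difference 0.32, SE 0.13, adjusted p = 0.0853). Ccr7, the receptor of Ccl19, and Cxcr3, that of Cxcl10, had log2 differences of 0.11 (adjusted p = 0.313) and 0.02 (adjusted p = 0.873). Between media 0 of the 18 passed.

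Atypical receptors bind chemokines without signalling through G proteins and thereby clear or present them. Of 5, Ackr3 and Ackr1 rose in flight (40%, against 11.6% of all genes), with a list median of 0.25 against -0.02 over all genes. Ackr3, which binds Cxcl12, had 7.70, 7.52, 7.62 and 7.35 on the flight arrays, against 7.11, 7.42, 7.25 and 7.14 on the ground-based arrays (log2 difference 0.32, SE 0.10, adjusted p = 0.0298). Ackr1, which is found on venular endothelium and erythroid cells, had 7.65, 7.34, 7.63 and 7.55 on the flight arrays, against 7.13, 6.74, 7.09 and 6.90 on the ground-based arrays (log2 difference 0.58, SE 0.11, adjusted p = 0.00175). Flight and ground-based arrays of Ackr1 did not overlap, and those of Ackr3 did. The ground-based values of Ackr1 all lay below the 40th percentile, so the size of its difference may depend on the floor. The summed intensity of the 11 endothelial markers ranged from 2165 to 3665 on flight arrays and from 1555 to 1666 on ground-based arrays, and its part in the receptor results was not tested. In osteoinductive medium Ackr4 rose (0.47, adjusted p = 0.0116) and Ccrl2 fell (-0.40, adjusted p = 0.0261), both with a mean below the 40th percentile. Each made up 20% of the list, against 4.18% of all genes that rose and 4.27% that fell.

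**Figure D5:**
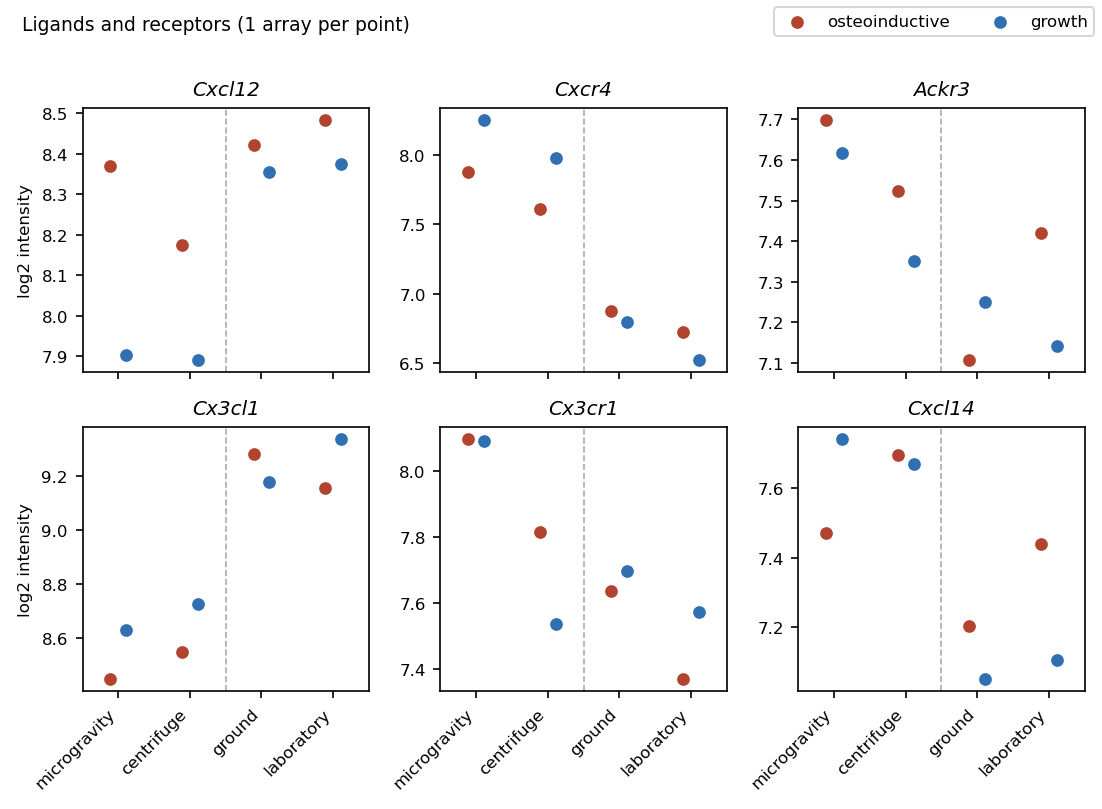
log2 intensity (y axis, its own scale for each gene) of Cxcl12 with its receptors Cxcr4 and Ackr3, of Cx3cl1 with its receptor Cx3cr1, and of Cxcl14, in the 4 conditions (x axis), with red points for osteoinductive and blue points for growth arrays. Flight arrays of Cx3cl1 are low and those of Cxcr4 and Cxcl14 high in both media, whereas for Cxcl12 the 2 growth flight arrays are the lowest.

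Chemokine-like genes outside the symbol rule were read separately. Pf4 (Cxcl4, platelet factor 4) rose in flight, with 7.59, 7.11, 7.55 and 7.27 on the flight arrays, against 6.62, 6.50, 6.63 and 6.76 on the ground-based arrays (log2 difference 0.75, SE 0.11, adjusted p = 0.000363). Ppbp (Cxcl7), also stored in platelets, rose by 0.37 (adjusted p = 0.0252), and Cklf fell (-0.33, adjusted p = 0.0311). Pf4 and Ppbp had means of 7.00 and 6.14, below the 40th percentile, so both may lie near background. Mif, the fourth of them, did not pass (-0.25, adjusted p = 0.189), and between media 0 of the 4 passed.

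Upstream of the inflammatory chemokines, 6 of 18 NF-kB pathway genes fell in flight and 0 rose, with a median of -0.18 against -0.02 over all genes. Falls made up 33.3% of the list and 16.2% of all genes. However, 17 of the 18 had a mean above the 40th percentile. In flight 5068 of the 13205 genes above it passed, against 5533 of all 19938. The median over those 13205 genes was -0.09. Nfkb2 (-0.52, adjusted p = 0.00375) and Relb (-0.41, adjusted p = 0.00484) form the main dimer of the non-canonical pathway, and Ikbkg (-0.45, adjusted p = 0.00144) is the scaffold of the kinase that starts the canonical one. Between media 1 rose and 1 fell (5.56% each, against 4.18% and 4.27% of all genes). Bcl3, a nuclear I kappa B protein, rose in osteoinductive medium (0.51, adjusted p = 0.00516), and Nfkbia, the inhibitor that NF-kB itself induces, fell (-0.42, adjusted p = 0.0117).

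Among 10 STAT and IRF factors 4 fell (40%, against 16.2% of all genes) and 0 rose in flight, with a list median of -0.16. Each of the 10 had a mean above the 40th percentile, where genes passed more often than over the whole array. Irf7, which is itself induced by interferon, had 8.08, 8.43, 9.27 and 9.56 on the flight arrays, against 9.23, 9.23, 9.70 and 9.86 on the ground-based arrays (log2 difference -0.67, SE 0.13, adjusted p = 0.00273). Irf1 (-0.69, adjusted p = 0.000393), Stat2 (-0.47, adjusted p = 0.0105) and Irf9 (-0.38, adjusted p = 0.028) fell as well. In osteoinductive medium Irf7 (-0.86, adjusted p = 0.00108), Irf9 (-0.48, adjusted p = 0.0265) and Stat2 (-0.34, adjusted p = 0.0487) fell, which is 30% of the list against 4.27% of all genes, and Stat3 rose (0.82, adjusted p = 0.000223).

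Of 21 genes for cytokines, receptors and an adaptor linked to chemokine induction, 4 fell and 0 rose in flight, with a list median of -0.13. The list also holds Il1rn, the interleukin-1 receptor antagonist, which opposes induction. In that comparison 19% of the list and 16.2% of all genes fell. Tlr4, the endotoxin receptor, and Myd88, its adaptor, fell by 0.45 (adjusted p = 0.0155) and 0.44 (adjusted p = 0.0327). In osteoinductive medium 5 rose and 2 fell (23.8% and 9.52%, against 4.18% and 4.27% of all genes). The 5 that rose include the antagonist Il1rn, and the 2 that fell are Tnf and Lif. Lif, a cytokine of the interleukin-6 family, fell there (-0.67, adjusted p = 0.0019), while the TNF receptors Tnfrsf1a (0.55, adjusted p = 0.00745) and Tnfrsf1b (0.61, adjusted p = 0.00204), the interferon gamma receptor Ifngr1 (0.62, adjusted p = 0.00767) and the cytokine Il33 (0.82, adjusted p = 0.00439) rose.

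Of 8 genes for proteins that control chemokine mRNA decay 3 fell in flight (37.5%, against 16.2% of all genes) and 1 fell in osteoinductive medium (12.5%, against 4.27%). All 8 likewise had a mean above the 40th percentile. Among 12 proteases that cleave chemokines 2 rose and 3 fell in flight (16.7% and 25%, against 11.6% and 16.2% of all genes). In osteoinductive medium 3 of them rose and 1 fell (25% and 8.33%, against 4.18% and 4.27%). Dpp4, which inactivates Cxcl12 and Cxcl10 by trimming their amino end, rose in flight (0.52, adjusted p = 0.0139), although its mean lay below the 40th percentile. Mmp13, an interstitial collagenase, rose both in flight (0.66, adjusted p = 0.0155) and in osteoinductive medium (1.08, adjusted p = 0.00324).

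Marker genes of leukocytes that make Ccl3, Ccl5 and other inflammatory chemokines were read beside them. Of 18 macrophage genes 1 fell (5.56%, against 4.27% of all genes) and 0 rose in osteoinductive medium. The gene that fell was Csf1r (-0.32, adjusted p = 0.0389). The summed macrophage intensity was 4309 to 5569 on osteoinductive and 4303 to 5215 on growth arrays, and 4303 to 5569 on flight against 4309 to 4977 on ground-based arrays. Such a sum follows the brightest genes most, and Cd53, with a mean of 10.93, was the brightest of the list. Lyz2 was 9.72 on the osteoinductive microgravity array and 7.43 to 7.80 on the others. The sums are therefore no measure of the number of macrophages. In flight 2 macrophage genes rose, the mannose receptor Mrc1 (0.87, adjusted p = 0.000164) and C1qb (0.22, adjusted p = 0.0435), and Cd68 fell (-0.24, adjusted p = 0.0491). Rises made up 11.1% and falls 5.56% of the macrophage list, against 11.6% and 16.2% of all genes. Mrc1 had a mean below the 40th percentile. Of 10 neutrophil genes 0 passed in either comparison, and their sums were 953.2 to 1121 in flight and 900.8 to 1029 in ground-based cultures. Of 9 lymphocyte genes 1 fell in osteoinductive medium (11.1%, against 4.27% of all genes) and 0 passed in flight. The gene that fell was Cd79a, with a mean below the 40th percentile. The part of these cells in the chemokine results was not tested.

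The 12 stromal markers had 3 rises and 3 falls in flight (25% each, against 11.6% and 16.2% of all genes). In osteoinductive medium 2 rose and 2 fell (16.7% each, against 4.18% and 4.27%). Alpl and Eng were among the rises in flight, and Col3a1 and Pdgfra were the rises in osteoinductive medium. Vcam1, an adhesion molecule of marrow stroma that holds haematopoietic cells, fell in flight (-0.59, adjusted p = 0.00687) and in osteoinductive medium (-0.69, adjusted p = 0.0106).

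A total of 18 chemokine genes passed in neither flight nor medium, among them Ccl7 and Ccl11. For the other 16 the log2 differences in flight ran from -0.22 to 0.24, and those between media from -0.24 to 0.23. These 16 are Ccl1, Ccl4, Ccl6, Ccl8, Ccl12, Ccl20, Ccl22, Ccl24, Ccl26, Cxcl3, Cxcl9, Cxcl11, Cxcl13, Cxcl16, Cxcl17 and Xcl1, of which 4 had a mean above the 40th percentile. Ccl6, the furthest above 0 of them in flight together with Cxcl9, was highest on the 2 osteoinductive flight arrays.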

How the data were processed

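Total RNA of 8 samples was labelled with biotin and hybridised to single-colour arrays, 1 array per medium and condition. The authors deposited linear intensities per probe set. Per the submitters' processing notes RMA and GCRMA were used, without saying which gave these intensities, and no build is named for the deposited values. Samples were grouped from their titles. Of 35557 probe sets 21789 name 1 gene, 1621 several and 12147 none in the platform annotation, and single-gene probe sets gave 19938 genes. The log2 of the deposited intensities was tested without further normalization, because array medians lay within 0.12 log2.

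Each of 7 comparisons was fitted with limma 3.58.1 in R 4.3.3 (lmFit and eBayes, two-sided) over all 19938 genes, with Benjamini-Hochberg adjustment in each and a threshold of 0.05. The flight fit had medium as covariate and 5 residual degrees of freedom. Media and conditions came from a fit of both, with 3 residual degrees of freedom and their interaction as error, and the interaction fit had 4. The fit was tested on simulated data. Promoter sequences are RefSeq's for GRCm38.p6. Alternatives were quantile normalization, a brightness filter, 32 added before log2, the mean of all probe sets of a gene, each array left out, no term for the other factor and only the arrays of both conditions. A spread that depends on the mean level was added after seeing the data.

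The members and gene lists were chosen with earlier results of these data known. Values on all 8 arrays are given for chemokines that passed in flight, medium or their interaction, and for the 8 with the highest mean. Conventional receptors are described one by one where they lie above the 40th percentile, and of most lists up to 5 genes that passed in a comparison are named. Some listed genes were not analysed here.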

Additional observations from a re-analysis of the deposited data

How the results depend on the processing

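Over the 29 calls of a chemokine gene in a comparison and 401 recomputed values, 313 kept direction and call, 88 kept the direction without passing, and 0 changed direction. With 1 array left out in turn, the number of chemokines that passed ranged from 5 to 16 in flight minus ground-based (11 with all arrays), from 7 to 9 in osteoinductive minus growth (9), from 1 to 8 in microgravity minus ground (7), from 0 to 3 in centrifuge minus ground (2), from 0 to 1 in microgravity minus centrifuge (0), from 0 to 0 in ground minus laboratory (0) and from 0 to 1 in the interaction (0). In flight the count was 5 without the osteoinductive ground array, and 6 without the growth microgravity, the osteoinductive centrifuge, the growth laboratory or the osteoinductive laboratory array. In microgravity minus ground it was 2 without the growth microgravity array and 1 without the osteoinductive ground array, and in centrifuge minus ground it was 0 without the osteoinductive centrifuge or the osteoinductive ground array. The flight calls of Cx3cl1, Ccl25 and Cxcl14 (3 of 11) and the medium calls of Cxcl10, Ccl3, Ccl5, Ccl2, Cxcl1, Cxcl2 and Cxcl5 (7 of 9) passed with any 1 array left out. A lone array of a condition then has no partner and is assumed to vary like the others.

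Quantile normalization left 4 chemokines in microgravity minus ground, and the count over all genes also fell, from 4030 to 3143. Without a term for the other factor 3 passed in flight and 3 between media. With only the 4 arrays of both conditions, 4 passed in centrifuge minus ground and 1 in microgravity minus centrifuge. The cause was not tested. The brightness filter did not test Cxcl15, Cxcl5 and Ccl28. Replicate numbers pair nothing here, since each medium and condition has 1 array. The fit of the media already compared them within each condition, through its condition term, and the 3 calls without that term are the unpaired count. The number of arrays limits the precision, and signals near background limit the 15 dimmer chemokines.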
